A study of Mus musculus with 4 samples.

Results

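The cytosolic ribosomal protein genes were described in 4 sorted populations of mouse bone marrow, measured on Affymetrix arrays of 45101 probe sets with 1 array per group. Members were probe sets that name exactly 1 gene with a ribosomal protein symbol. That is a symbol of the small subunit (Rps), the large subunit (Rpl) or the stalk (Rplp), or Rpsa. Kinases and symbols that mark a pseudogene (-ps) were left out. This gave 46 of the 18193 genes named alone on the array, 22 of the small and 24 of the large subunit. Each was represented by its brightest probe set, the one with the highest mean log2 over the 4 arrays. RefSeq lists 81 protein-coding genes that match the rule, and 45 of the members are among them. The remaining member, Rps4l, is a transcribed pseudogene in RefSeq. The other 36 of the 81 had no probe set of their own, and 28 of these are on probe sets that name several genes. Genes were counted only if at least 1 array read 157 or more, the median intensity over all probe sets and arrays. This held for 43 members. The nearest member above that level was Rps27, with a highest value of 264, and the nearest below it was Rpl39l, with 120. Rpl3l and Rps16 were also below it. Rps16 read at most 38.7 on its only probe set, and whether that probe set detects its main message is not known here.

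The 4 groups were LSK cells (no lineage markers, positive for Kit and Sca1, the gate that holds stem cells and multipotent progenitors) and MP cells (the same gate without Sca1, myeloid progenitors), each from wild-type and from Fbw7-deficient mice. All animals of all groups had received polyI:C, a double-stranded RNA that induces interferon, in 3 injections of 20 ug per g, and were sampled 2 weeks after treatment. Both sorts of a genotype came from 1 pool of marrow from 3 mice. The labels name no strain, age, sex or way in which Fbw7 was removed. Fbw7, encoded by Fbxw7, marks MYC and cyclin E for destruction as part of a ubiquitin ligase, and MYC is known to drive ribosome production. Where 4 values of a probe set follow each other below, they are the intensities in LSK and then in MP cells, with wild type before Fbw7-deficient in each.

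No group has a replicate, so no test was made, and a difference below is one between single arrays with no error between samples. In pooled populations, fewer cells of a type and less RNA per cell cannot be told apart. Fbxw7 itself read 1355, 1103, 691 and 958 on its brighter probe set (log2 -0.30 between genotypes in LSK and 0.47 in MP), and whether its probe sets lie in the removed part is not known. In wild type, all 11 stem cell markers that passed the level filter were higher in LSK than in MP cells (median log2 difference 2.32). Ly6a, which encodes Sca1, is not analysed here. For Gapdh, the signal of its 3' control divided by that of its 5' control was 4.30 on the wild-type LSK array and between 2.60 and 2.95 on the other arrays.

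Ribosomal proteins coat and hold together the ribosomal RNA of the small subunit, which decodes the messenger RNA, and of the large subunit, which joins amino acids. Cells make these proteins in nearly equal amounts, and their messenger RNAs are among the most abundant in growing cells. Most of these messages begin with a run of pyrimidines, the terminal oligopyrimidine (TOP) tract, through which mTOR and LARP1 control their translation. Mutation of many of these genes causes Diamond-Blackfan anemia, a failure of red cell production, so their level in blood progenitors is of interest.

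RefSeq start sites (GRCm38.p6) were found for 40 of the 46 members, which have 48 starts in all. Windows of 50 bases around the start, 30 before it and 20 from it on, are shown for 3 members with higher values in both Fbw7-deficient populations (Rps15, Rpl12 and Rps27l) for Rps6, the member 1.2-fold lower in Fbw7-deficient MP, for Rps9, whose probe sets differ, and for members whose brightest probe set stayed within 1.2-fold between genotypes (Rpl35, Rpl38, Rps18 and Rps10). Capitals mark the longest run of C or T within 10 bases on either side of the start, where it has at least 6 bases.
Rps15: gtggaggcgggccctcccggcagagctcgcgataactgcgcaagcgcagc
Rpl12: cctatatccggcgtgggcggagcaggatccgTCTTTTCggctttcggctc
Rps27l: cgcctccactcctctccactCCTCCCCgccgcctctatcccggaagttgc
Rps6: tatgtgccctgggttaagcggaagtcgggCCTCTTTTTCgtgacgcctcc
Rps9: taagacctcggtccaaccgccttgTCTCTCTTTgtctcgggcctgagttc
Rpl35: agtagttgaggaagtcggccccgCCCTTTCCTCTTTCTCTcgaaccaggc
Rpl38: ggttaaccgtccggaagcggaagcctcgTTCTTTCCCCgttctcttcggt
Rps18: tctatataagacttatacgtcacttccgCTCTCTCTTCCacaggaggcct
Rps10: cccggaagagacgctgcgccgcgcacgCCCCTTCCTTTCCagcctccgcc
These windows lie at chr10:80292401-80292450 on the plus strand for Rps15, chr2:32961682-32961731 on the plus strand for Rpl12 and chr9:66946056-66946105 on the plus strand for Rps27l, which has a further start with no such run. They lie at chr4:86857348-86857397 on the minus strand for Rps6, chr7:3704011-3704060 on the plus strand for Rps9, chr2:39005112-39005161 on the minus strand for Rpl35 and chr11:114668550-114668599 on the plus strand for Rpl38. Those of Rps18 and Rps10 are chr17:33955646-33955695 and chr17:27635225-27635274, both on the minus strand.

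A pyrimidine run of at least 6 bases on the gene's strand stood at 22 of the 48 starts of members (45.8%) and at 6631 of 32851 starts of all genes (20.2%). In the whole window of 300 bases, searched on both strands, CCGGAAG, the core of ETS factors, stood at 20 of 48 member starts (41.7%) and at 8.86% of all starts. AAGATGG, the core of YY1, stood at 7 of 48 (14.6%) and at 6.34% of all starts, and TATAAA, the TATA box, at 5 of 48 (10.4%) and 13.6%. The first 2 of these letter strings can overlap by AAG. Within 10 bases of its start Rps15, one of the members with higher values in Fbw7-deficient cells, had no run of 6, and Rpl12 had a run of 7. A match is a description of letters and not a mapped site.

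**Figure D1:**
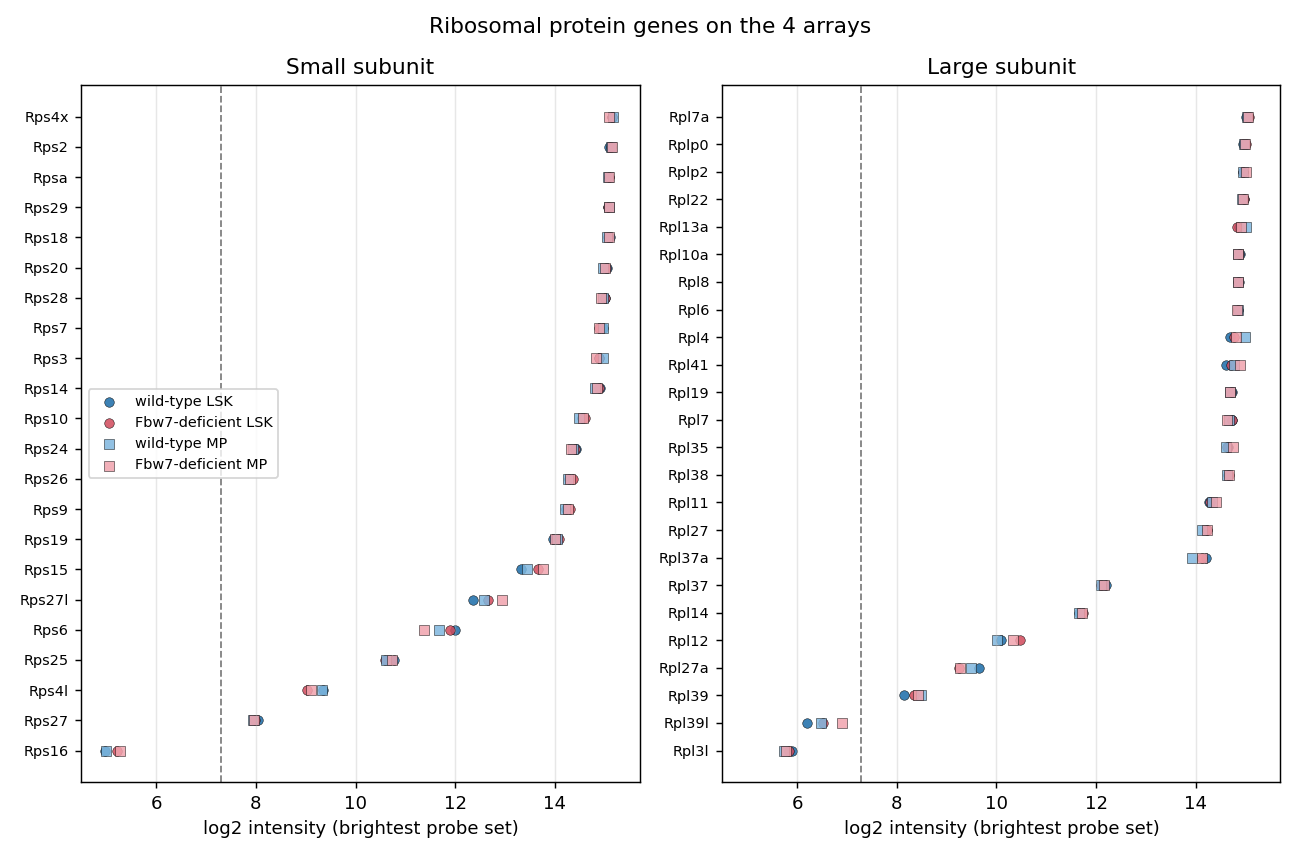
Log2 intensity (x axis) of the brightest probe set of each of the 46 ribosomal protein genes (y axis), small subunit on the left and large subunit on the right. Each symbol is 1 array, blue for wild type and red for Fbw7-deficient, circles for LSK and squares for MP; the dashed line is the level filter of 157. For 32 members the 4 symbols lie close together at a mean log2 of 14 or more, while Rps15, Rps27l, Rps6 and Rpl12 show a spread between arrays.

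Most ribosomal protein genes sat at the top of the range of the arrays. A mean log2 intensity of 14 or more (16384 on the linear scale) was reached by 158 of the 12239 genes that passed the filter, and 32 of these were ribosomal protein genes. The highest value of any probe set lay between 41861 and 43564 on the 4 arrays. Among the stalk proteins, Rplp0, which anchors the stalk to the large subunit, read 31748, 32978, 31877 and 32473. Rplp2, one of its acidic partners, read 31784, 31518, 31539 and 32801. Rpsa, of the small subunit and also a laminin receptor, read 34552, 34916, 34188 and 34678. Rps29 read 34410, 34378, 34619 and 34586. The 4 arrays of each of these genes lay within 1.2-fold of each other.

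The first comparison, Fbw7-deficient against wild-type LSK cells, addresses the effect of the deficiency on stem and multipotent progenitor cells. The ribosomal protein genes centred on no difference. The median log2 difference over the 43 members was 0.00 and the middle 50% lay between -0.03 and 0.06, against -0.21 to 0.18 for all genes, whose median was also 0.00. No member differed by 2-fold on its brightest probe set, where 1.79% of all genes were higher and 1.95% lower by that much. At 1.2-fold, 3 members were higher (background 17.4%) and 2 were lower (background 21.1%). Counting signs alone, 19 of the 43 members were above 0, where 50.7% of all genes were.

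The 3 higher members in LSK were Rpl12, Rps15 and Rps27l. Rpl12, a protein at the base of the stalk, read 1089 in the wild type and 1416 in the deficient cells (log2 0.38). Rps15, of the small subunit head and a Diamond-Blackfan gene, read 10287 and 12878 (log2 0.32). Rps27l, a paralog of Rps27, read 5258 and 6454 (log2 0.30). In the lower direction, Rpl27a, of the large subunit, read 809 and 607 (log2 -0.42). Rps4l, the transcribed pseudogene, read 652 and 518 (log2 -0.33). The remaining genes that ranked among the 4 farthest in a direction were Rpl39 (0.20), Rps25 (-0.17) and Rps6 (-0.11). Rpl12, Rpl27a, Rpl39, Rps25 and Rps6 were each represented by a plain probe set far dimmer than most members. The mean log2 of these probe sets was 10.2, 9.41, 8.35, 10.7 and 11.7, in the same order. Whether these probe sets detect the main message of the gene is not known here, so their differences may not be those of the gene. The 5 members past 1.2-fold were all among the 11 members with a mean log2 below 14. Of the 32 members at or above it, none reached 1.2-fold, and their differences ran from -0.08 to 0.11.

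In MP cells the same comparison of genotypes gave a nearly equal picture. The median over the 43 members was 0.02, beside 0.00 for all genes, and the middle 50% lay between -0.04 and 0.06. No member differed by 2-fold on its brightest probe set (background 0.825% higher and 1.49% lower). At 1.2-fold, 3 members were higher (background 14.7%) and 1 was lower (background 17.3%). Counting signs alone, 26 of 43 were above 0, against 49.6% of all genes.

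The 3 higher members in MP were again Rps27l, Rpl12 and Rps15. Rps27l read 6132 in wild-type and 7825 in Fbw7-deficient MP (log2 0.35), Rpl12 read 1036 and 1295 (log2 0.32), and Rps15 read 11186 and 13813 (log2 0.30). For Rpl12 both Fbw7-deficient arrays lay above both wild-type arrays, and so they did for Rps15 and Rps27l. Rpl27a (716 and 616, log2 -0.22) and Rps4l (640 and 548, log2 -0.22) were lower in MP as well, without reaching 1.2-fold. Rps6, whose protein is phosphorylated downstream of mTOR, read 3254 in wild-type and 2644 in Fbw7-deficient MP (log2 -0.30), and 4097 and 3789 in LSK (log2 -0.11). Rpl37a (0.21) and Rpl4 (-0.17) came next. The genotype comparisons in LSK and MP use different arrays but the same pools of mice.

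Other signals moved with genotype on these arrays. The summed intensity of the 12 named erythroid markers was 7978, 29196, 26760 and 52382 on the 4 arrays. That of the 10 named neutrophil and monocyte progenitor markers was 59236, 116732, 154994 and 154533. Mpo, the brightest of them, read 24989, 31967, 36135 and 36278. In MP 2 of the 10 were at least 1.2-fold higher in Fbw7-deficient cells (background 14.7%) and 2 lower (background 17.3%). The farthest in each direction were Fcnb (0.88) and Csf1r (-1.22). The summed intensity of the 12 named stem cell markers was 25770, 10287, 5998 and 4233. For 9 B cell and plasma cell markers it was 2863, 7107, 7455 and 2229. Much of that sum was Igha, which read 221, 2696, 4238 and 523. In LSK 4 of the 9 were at least 2-fold higher in Fbw7-deficient cells, while Cd79b, Ms4a1 and Pax5 were at 0.02, -0.03 and -0.05. The lowest value of a single marker on these lists was 48.6, that of Hoxb5 in Fbw7-deficient MP. Hoxb5 and the erythroid marker Hba-a1 were below the level filter on all arrays and are not shown to be above background. The part of these cell types in the values of Rps15, Rps27l and Rpl12 was not tested. The Gapdh ratio given above, which differed between the LSK arrays (4.30 and 2.75), was 2.60 and 2.95 on the MP arrays, and its part in these values was not tested either.

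**Figure D2:**
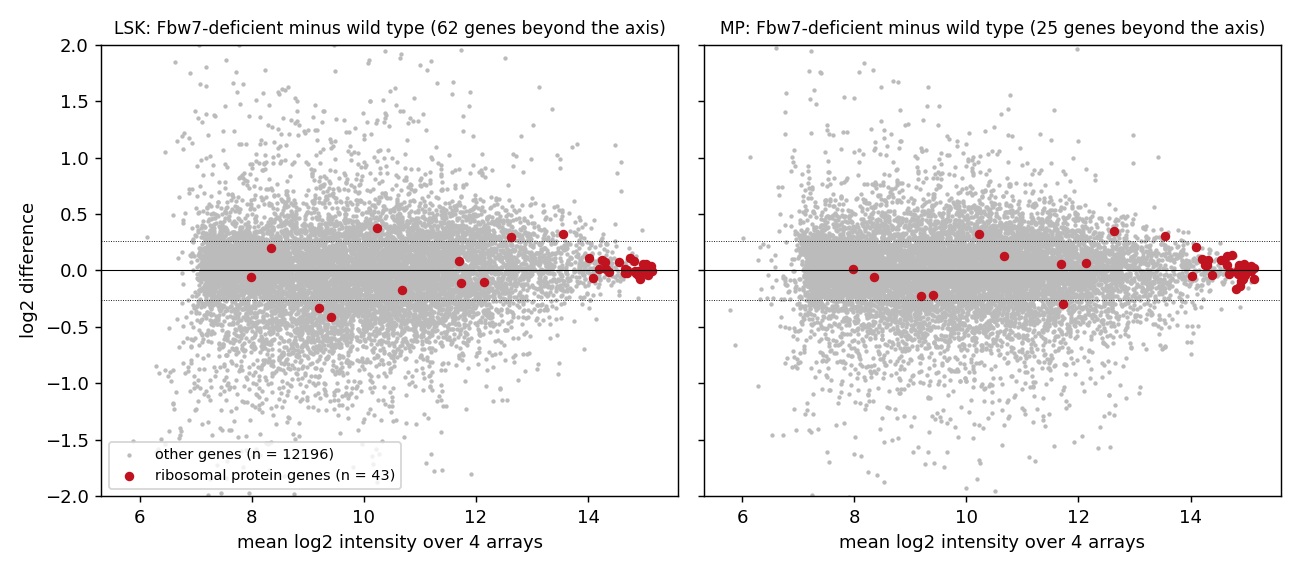
Log2 difference between Fbw7-deficient and wild-type cells (y axis) against mean log2 intensity over the 4 arrays (x axis), in LSK on the left and in MP on the right. Grey points are other genes and red points the 43 ribosomal protein genes; dotted lines mark 1.2-fold, and genes beyond the axis are counted in each title. The differences of all genes narrow at the bright end, where 32 of the ribosomal protein genes lie.

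Differences of all genes were smaller at this brightness. Among the 126 other genes with a mean log2 of 14 or more, the median absolute log2 difference was 0.09 in LSK and 0.08 in MP, where it was 0.23 and 0.19 for the 1711 other genes between 11 and 12. For the 32 bright members it was 0.02 in LSK and 0.05 in MP. Of those 126 other genes, 13 reached 1.2-fold in LSK and 11 in MP. Of the 11 members below a mean log2 of 14, 5 reached 1.2-fold in LSK and 4 in MP. Of the 1711 other genes between 11 and 12, 748 did in LSK and 601 in MP. The low counts of members past 1.2-fold thus rest on the 32 bright members. The part of signal saturation in the small differences of bright members was not tested.

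The genotype differences of LSK and MP were also subtracted from each other. The median over members was -0.01, beside 0.00 for all genes, and no member reached 2-fold (background 2.20% higher and 1.32% lower). At 1.2-fold, no member was higher (background 19.2%) and 2 were lower (background 20.0%). These were Rps25 (-0.30), at -0.17 in LSK and 0.13 in MP, and Rpl37a (-0.28), at -0.07 in LSK and 0.21 in MP. In neither gene did a single genotype difference reach 1.2-fold, 21 of 43 members were above 0 (background 50.0%), and for Rpl37a the sign of the subtraction turned with the other probe sets (0.071 with their mean).

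MP cells were included so that genes enriched in LSK cells could be told from others. The ribosomal protein genes again centred near 0. In wild-type cells the median over members was 0.02, beside -0.02 for all genes, and no member reached 2-fold (background 5.05% higher and 2.40% lower in LSK). At 1.2-fold, 2 members were higher (background 27.2%) and 2 lower (background 21.5%) in LSK, and 28 of 43 were above 0 (background 48.0%). Rps6 read 4097 in LSK and 3254 in MP (log2 0.33), and Rpl37a read 18774 and 15521 (log2 0.27). The other Rpl37a probe sets had the opposite sign (-0.21 and -0.98), and the mean of its probe sets gave -0.31. Rpl39, X-linked and lining the exit tunnel, read 283 and 358 (log2 -0.34). Rpl4, also at the tunnel, read 26431 and 32346 (log2 -0.29). Rps27l (-0.22), Rpl41 (-0.16), Rpl27a (0.18) and Rps25 (0.16) were the next in rank. The wild-type LSK array enters this comparison and the genotype comparison in LSK.

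In Fbw7-deficient cells the median of LSK minus MP was 0.01, and it was 0.01 for all genes. No member reached 2-fold (background 3.86% higher and 1.63% lower). At 1.2-fold, 1 member was higher (background 23.5%), Rps6, at 3789 in LSK and 2644 in MP (log2 0.52), and 1 was lower (background 17.6%), Rps27l, at 6454 and 7825 (log2 -0.28). Of the 43 members, 23 were above 0, where 51.8% of all genes were. Rpl41 (-0.18), Rpl11 and Rps25 (both -0.14), Rpl12 (0.13), Rpl7 (0.09) and Rps19 (0.08) were the next in rank. Rpl39 was at -0.09, Rpl4 at -0.04 and Rpl37a at 0.00 here. On its brightest probe set Rps6 was thus higher in LSK of both genotypes, and both LSK arrays lay above both MP arrays. That probe set is one of the dim plain ones named above, so the difference may not be that of the gene Rps6. With the mean of its 2 probe sets, of which the other lay below the level filter, the wild-type value was -0.067.

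The subunits and the disease genes followed the group. The 21 measured small subunit genes had medians of -0.01 in LSK and 0.02 in MP between genotypes, and the 22 large subunit genes of 0.00 and 0.03. Of 19 listed Diamond-Blackfan anemia genes, 12 had a probe set of their own and all 12 passed the filter. Their median genotype difference was 0.00 in LSK and 0.03 in MP, and in each population only Rps15 of the 12 reached 1.2-fold, where 17.4% of all genes were higher by that much in LSK and 14.7% in MP. Rps19, the gene most often mutated in that anemia, read 16014, 17331, 16949 and 16419. Rpl11, which binds MDM2 when ribosome assembly fails, read 19662, 19867, 20494 and 21830. Rps26 read 19856, 20955, 19633 and 20314. The other measured genes of that list were Rps7, Rps10, Rps24, Rps27, Rps28, Rps29, Rpl27 and Rpl35. Their genotype differences ran from -0.08 to 0.07 in LSK and from -0.08 to 0.13 in MP. Among them Rps27 read at most 264 on its only probe set, a plain one near the level filter. Whether that probe set detects its main message is not known here. Rpl38, known for its part in translation of Hox messages, read 25726, 25916, 25210 and 26031, and Rps4x, the X-linked form of Rps4, read 36284, 36123, 36854 and 34965. For Rps19, Rpl11, Rps26, Rpl38 and Rps4x the genotypes overlap or differ by less than 1.2-fold. Of 11 listed proteins known to bind MDM2, 8 were measured, and Rps27l alone among them reached 1.2-fold between genotypes, in LSK and in MP, against the same backgrounds.

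Paralogs with restricted expression were dim. Rpl3l, the form of Rpl3 made in striated muscle, stayed between 53.7 and 59.3, and Rpl39l, the form of Rpl39 known from testis, read 73.5, 91.4, 88.8 and 120. Both are under the level filter and are not shown to be above background. Rpl22l1, the paralog of Rpl22 and outside the rule, read between 16755 and 17544 on the 4 arrays. Also outside the rule, Rpl7l1, the paralog of Rpl7, was at 0.20 in LSK and 0.31 in MP between genotypes, Fau, whose product includes a small subunit protein, at 0.15 and 0.21, and Rps3a1 at 0.01 and -0.10. Rack1 and Rplp1 have no probe set that names them alone.

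The 46 members had 100 probe sets, of which 90 passed the filter. Affymetrix marks by suffix how specific a probe set is: 31 were plain (_at) and 26 covered several transcripts of the gene (_a_at). A further 3 were shared between transcripts that can belong to different genes (_s_at), and 40 contained probes that also match other sequences (_x_at). Over the 19 members with at least 2 probe sets above the filter, the median range between probe sets of a gene was 0.10 log2 in the LSK genotype comparison and 0.09 in the MP comparison. Counted singly, which was chosen after seeing the data, none of the 90 was 2-fold higher in Fbw7-deficient LSK (background 1.51%) and 1 was 2-fold lower (background 1.87%). In MP none was 2-fold higher (background 0.723%) and 1 was lower (background 1.35%). At 1.2-fold, 11 were higher (background 18.3%) and 3 lower (background 20.6%) in LSK, and 8 were higher (background 14.5%) and 3 lower (background 17.7%) in MP. Probe sets of 1 gene are not independent.

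The widest gap belonged to Rps9, a small subunit protein near the messenger RNA entry site. One of its 3 probe sets, of kind _x_at, read 28013, 5424, 27688 and 4444. Both wild-type arrays lay far above both Fbw7-deficient arrays, 5.16-fold in LSK and 6.23-fold in MP. The Rps9 probe set with the highest mean, of kind _s_at, read 19063, 20287, 18965 and 19639. The plain one read 479, 594, 460 and 496, so neither of these was lower in Fbw7-deficient cells. On both wild-type arrays the _x_at probe set read higher than the _s_at one. Its mean log2 over the 4 arrays, which counts its low Fbw7-deficient values, was 13.5 against 14.2. It therefore did not represent the gene, and the absence of Rps9 from the 2-fold gene counts depends on that choice. Among 20887 probe sets that name 1 gene and passed the filter, 3 were at least 4-fold lower in both populations (0.0144%). The other 2 belonged to Pdgfrb and H2-Ob. Since Rps9 gives different answers by probe set, no change of the gene is stated here. Which stretch of Rps9 each probe set covers is not known here, and the cause was not tested.

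Rps15 and Rps27l held across their probe sets. The second Rps15 probe set, a plain one, read 3179, 4210, 3789 and 5876, which are log2 differences of 0.41 and 0.63. The other Rps27l probe sets had differences of 0.46 and 0.52 in LSK and of 0.36 and 0.44 in MP. Rpl12, Rps4l and Rps6 had no further probe set above the filter. For Rpl37a the brightest probe set had a difference of -0.07 in LSK and 0.21 in MP, whereas the second read 7030, 9167, 8144 and 10182 (log2 0.38 and 0.32) and the dimmest 280, 491, 552 and 719 (log2 0.81 and 0.38). One probe set of Rps10, the fifth in brightness of 6, read 8500, 10914, 9444 and 10973, while its brightest read 23836, 25085, 22853 and 24386.

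**Figure D3:**
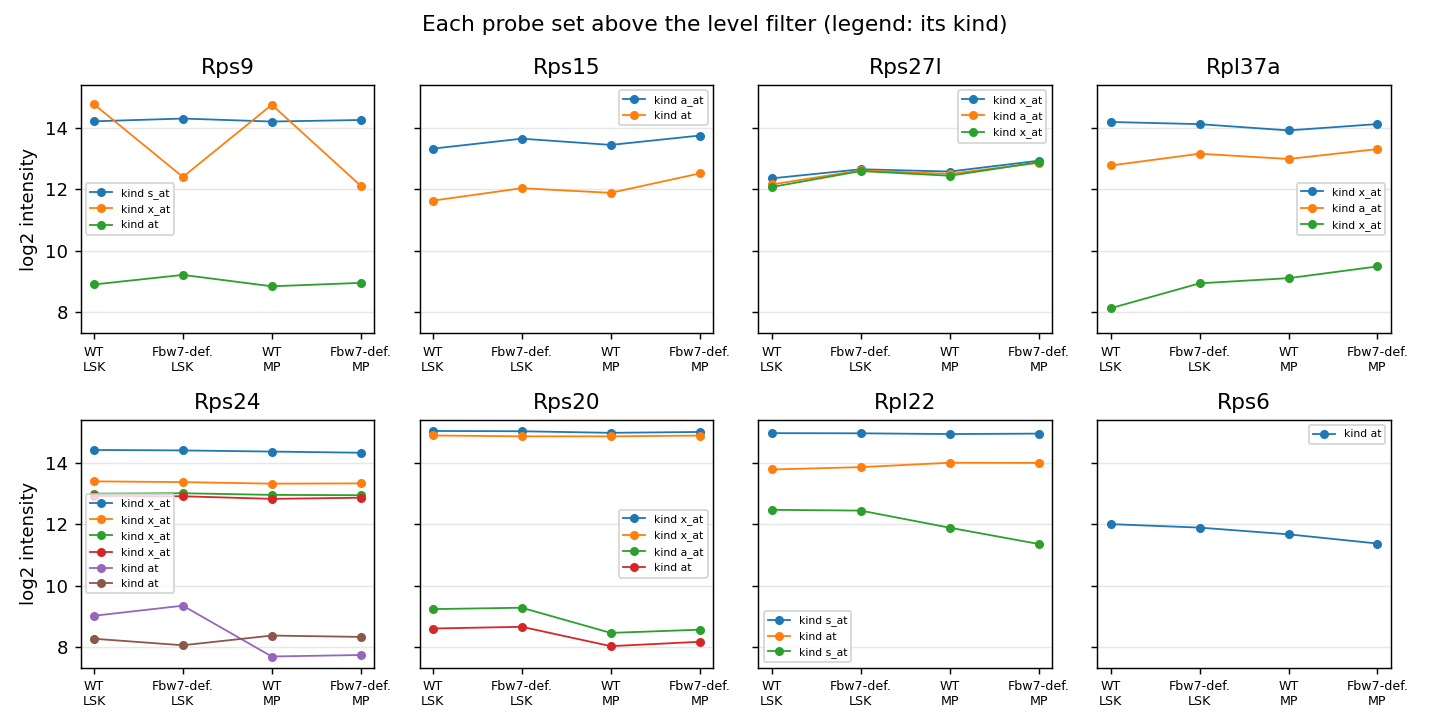
Log2 intensity (y axis) of each probe set above the level filter on the 4 arrays (x axis) for 8 ribosomal protein genes; a line joins the values of 1 probe set, and the legend gives its kind. One Rps9 probe set is lower on both Fbw7-deficient arrays while the others are not, and all probe sets of Rps15 and Rps27l are higher there. In LSK against MP, 1 of the 2 dim Rps24 probe sets, the dim ones of Rps20 and 1 of Rpl22 are higher, and the other dim Rps24 probe set is lower.

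Rps24, Rps20 and Rpl22 had dimmer probe sets that separated LSK from MP, while their brightest differed by less than 1.2-fold. A plain probe set of Rps24, a Diamond-Blackfan gene, read 518, 650, 206 and 213, a difference between populations of log2 1.33 and 1.61. The other plain Rps24 probe set ran the other way, at 308, 266, 331 and 321 (log2 -0.10 and -0.27). The brightest Rps24 probe set read 21873, 21652, 21096 and 20543. For Rps20 the dimmer pair had differences of 0.78 and 0.57 in wild-type and 0.72 and 0.49 in Fbw7-deficient cells, against 0.06 and 0.02 for the brightest. For Rpl22, whose protein also acts in T cell development, 1 probe set read 5660, 5564, 3780 and 2621, which is log2 0.58 between wild-type populations and 1.09 between Fbw7-deficient ones, while its plain probe set had differences of -0.22 and -0.14. Of the 90 probe sets, 1 was 2-fold higher in LSK than in MP in wild-type cells (background 4.93%) and 2 in Fbw7-deficient cells (background 3.85%). None was 2-fold lower in LSK, where the backgrounds were 2.36% and 1.48%. Dim probe sets of other members were lower in LSK: the dimmest of Rpl37a had differences of -0.98 in wild-type and -0.55 in Fbw7-deficient cells, and the dimmest of Rps3 of -0.33 and -0.64, while the other plain probe set of Rps3 was at 0.27 and 0.34. Which transcripts these dimmer probe sets detect is not known here.

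With plain probe sets alone, 25 members could be represented and 21 passed the filter. The median genotype difference was then 0.06 in LSK and 0.03 in MP. At 1.2-fold, 4 members were higher in LSK (background 18.2%) and 2 lower (background 21.3%), and in MP 2 were higher (background 13.8%) and 1 lower (background 18.1%). Between populations, 1 member was 2-fold higher in LSK in each genotype, Rps24, where 4.99% of all genes were in wild-type and 3.89% in Fbw7-deficient cells.

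The ribosomal protein genes were set beside the other parts of the translation machinery, in lists that share some genes. Eif3e, Eif3f, Eif3h, Eif3k, Eif3l and Eif4b are on both the list of other TOP messages and that of initiation factors. Other messages with a TOP tract had medians near 0 but a wider spread: over 23 measured genes the median genotype difference was 0.02 in LSK and -0.01 in MP, and the median absolute difference was 0.10 in both, against 0.04 and 0.05 for the members. In LSK 2 were at least 1.2-fold higher (background 17.4%) and none lower (background 21.1%), and in MP 1 was higher (background 14.7%) and 2 lower (background 17.3%). The farthest from 0 in LSK were Pabpc4, a poly(A) binding protein (0.36), Eif3k, of initiation factor eIF3 (0.30), Eef1d, of the elongation factor eEF1 (0.24), and Vim, the filament protein vimentin (-0.24). Among 29 initiation factors the LSK median was 0.14 and the MP median -0.01, with 12 at least 1.2-fold higher and none lower in LSK and 4 higher and 1 lower in MP, against the same backgrounds. In LSK Eif2b3, Eif2b5 and Eif2b1, of the exchange factor eIF2B, were at 0.60, 0.51 and 0.43, and the cap binding protein gene Eif4e at 0.42. In MP these genes were at 0.27, -0.20, 0.50 and -0.01, in the same order. Genes of mTOR and LARP1 control had medians of 0.06 and 0.02 over 16 genes. In LSK 11 of the 16 were above 0, 1 was at least 1.2-fold higher and 2 were lower, and in MP 1 was higher and 1 lower, against the same backgrounds. The 2 lower in LSK were Rictor, of mTOR complex 2 (-0.64, and -0.13 in MP), and Tsc1, an mTOR inhibitor (-0.48, and 0.20 in MP). Larp4 was the highest in LSK (0.30). In MP the farthest were Eif4ebp1 (0.52) and Ddit4 (-0.50).

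Genes that make ribosomes, and those of the mitochondrial ribosome, had medians further from 0 than the cytosolic ribosomal proteins. Over 49 ribosome biogenesis genes the median was 0.32 in LSK, with 30 at least 1.2-fold higher and none lower, and 0.16 in MP, with 12 higher and 1 lower. Over 76 mitochondrial ribosomal protein genes it was 0.35 in LSK, with 49 higher and none lower, and 0.26 in MP, with 38 higher and none lower. The corresponding backgrounds are 17.4% higher in LSK and 14.7% in MP, and cytosolic ribosomal proteins had 3 of 43 in each. Chaperones and importers of ribosomal proteins had a median of 0.19 in LSK and -0.01 in MP over 17 genes. Of these, Ltv1, Rrs1 and Tsr2 are also on the biogenesis list. Ltv1, which escorts Rps3 (0.59), Grwd1, the chaperone of Rpl3 (0.53), Heatr3, which brings Rpl5 to the nucleus (0.39), and Bccip, which binds Rpl23 (0.30), were the farthest from 0 in LSK. Between wild-type populations, biogenesis and mitochondrial ribosomal protein genes were both at -0.30 in LSK relative to MP, and the cytosolic ribosomal proteins at 0.02. With 1 array per group the gap between these lists has no test, and the bright cytosolic genes lie in a range of the array where differences of other genes were also small.

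**Figure D4:**
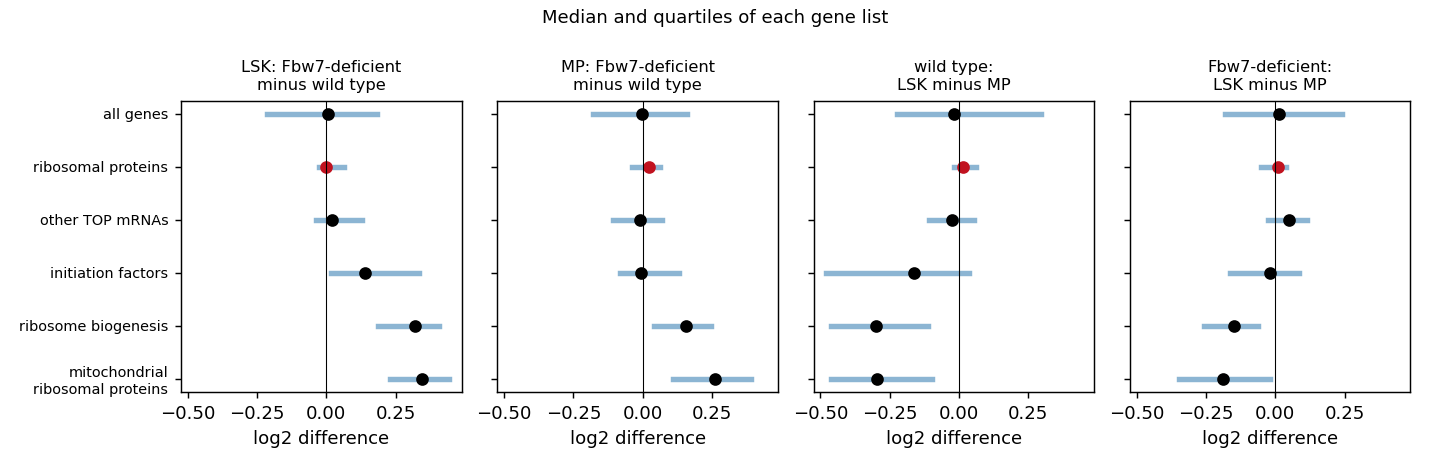
Median (point) and middle 50% (bar) of the log2 difference (x axis) of each gene list (y axis) in the 4 comparisons, with the cytosolic ribosomal proteins in red. Ribosomal proteins and other TOP messages centre near 0 in all 4 panels, while ribosome biogenesis and mitochondrial ribosomal protein genes lie above 0 in both genotype panels and below 0 in both population panels.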

How the data were processed

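Arrays were summarised by the authors with RMA, per the submitters' processing notes, which name no settings, and the deposited table holds linear intensity values. RMA gives all arrays the same distribution of probe values before they are summarised, and the array medians of the deposited values lay between 155 and 159. A shift common to most transcripts therefore cannot be seen, and the number of arrays limits the precision. Values were taken to log2. Probe sets were named through the platform annotation and symbols updated by gene ID through RefSeq (GRCm38.p6): 34945 of 45101 name 1 gene, 932 several (used for none) and 9224 are unnamed here. Each gene took its brightest probe set, and 12239 of 18193 passed the level filter. Differences between single arrays were counted at 2-fold and 1.2-fold, with no test. The counting was tested on simulated data. Members and lists were chosen with earlier results of these data known. Named genes are the 4 largest differences in each direction per comparison, the disease, stalk and paralog genes, Rpl38, Rpl22, Rps6, Rps4x and Rack1, those nearest the level filter, and up to 4 of each further list; Rps9, Rps20 and other steady members were named after their values were seen. Python 3.11.15, pandas 2.3.3 and matplotlib 3.10.9 were used, and the alternatives are described in the closing section.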

Additional observations from a re-analysis of the deposited data

How the results depend on the processing

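The median over members stayed between -0.04 and 0.06 in the LSK genotype comparison, 0.01 and 0.04 in MP, 0.01 and 0.06 between wild-type populations and -0.02 and 0.02 between Fbw7-deficient ones, and between -0.06 and 0.02 for the difference of genotype differences, over 8 alternatives in probe set choice, level filter, centring and symbols. Counts past 2-fold were 0 except in these cases. With plain probe sets alone 1 member (Rps24) was 2-fold higher in LSK than in MP in each genotype, and with the second brightest probe set, an alternative chosen after seeing the data, 1 member (Rps9) was 2-fold lower in Fbw7-deficient LSK and 1 in Fbw7-deficient MP. With the mean of all probe sets, Rpl37a changed sign between wild-type populations (-0.31) and in the difference of genotype differences (0.071). Rps6 did so between wild-type populations (-0.067). With the second brightest probe set Rpl37a gave -0.21 and 0.061. The LSK genotype difference of Rpl37a was also negative only on its brightest probe set (-0.07, against 0.38 and 0.81 on the others). The cause was not tested. Among single values of named genes, 115 stayed within 0.1 and 22 moved further with the mean of all probe sets, 52 stayed and 18 moved with plain probe sets, and 49 stayed and 14 moved with the second brightest, besides those that changed sign. No paired analysis was possible because each group has 1 array. The number of arrays limits the precision.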

Other observations

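Probe sets that name a ribosomal protein gene together with other genes, mostly its pseudogenes, were used for no gene. There were 110, of which 104 passed the level filter. Their median log2 difference was 0.00 between genotypes in LSK and 0.01 in MP, and 0.02 between LSK and MP in both genotypes. At 1.2-fold, 2 were higher and 3 lower in Fbw7-deficient LSK, where 18.3% and 20.6% of all probe sets that name 1 gene were, and 4 were higher and 3 lower in Fbw7-deficient MP, where 14.5% and 17.7% were. None was 2-fold different between genotypes (background 1.51% higher and 1.87% lower in LSK, 0.723% and 1.35% in MP), and 1 was 2-fold higher in LSK than in MP of wild-type mice (background 4.93%).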
